A study of Rattus norvegicus with 21 samples.

Results

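Spry2, Dusp1, Dusp5, Dusp6 and Errfi1 encode inhibitors of receptor and ERK signalling, and their transcripts were followed in rat bladder carcinoma cells over a time course of FGF1. All probe sets whose only gene symbol in the platform annotation is one of these 5 genes were taken. They are 8 of the 15923 probe sets in the table: 1374864_at for Spry2, 1368146_at and 1368147_at for Dusp1, 1368124_at for Dusp5, 1377064_at, 1382778_at and 1387024_at for Dusp6, and 1373093_at for Errfi1. There were 0 probe sets that join one of these symbols to another symbol.

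Total RNA was measured on 21 Affymetrix arrays, 1 sample each. NBTII is an epithelial rat bladder carcinoma line, and NBTII-FGFR1 is the same line after transfection with FGF receptor 1. The vector, its promoter and the number of transfected clones are not given in the sources used here. NBTII cells were sampled at 0 h (1 array), 0.5 h (1 array) and 2, 6, 24 and 48 h (2 arrays each) of FGF1, and NBTII-FGFR1 cells at 0.5 h (1 array) and 0, 2, 6, 24 and 48 h (2 arrays each). The stated treatment, shared by all 12 groups, is FGF1 at 20 ng/ml with heparin (given as 50 µl/ml). The series text says that controls and 0.5 h samples had no duplicates, whereas the titles number 2 NBTII-FGFR1 arrays at 0 h, and these are used here as 2 arrays. The 0 h arrays carry the same treatment text and are labelled control cells. No later array lacks FGF1, so FGF1, heparin, time and handling cannot be told apart.

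The ERK pathway carries the signal of a growth factor receptor through Ras, Raf and MEK to the kinases ERK1 and ERK2, which enter the nucleus and raise the transcription of early genes. Among these early genes are inhibitors of the same pathway. Sprouty proteins act between the receptor and Raf, the product of Errfi1 (also called Mig6) binds and blocks the EGF receptor family, and dual-specificity phosphatases remove phosphate from MAP kinases. In epithelial cells, transcripts of this group are used as a readout of ERK activity after FGF or EGF.

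Promoter sequences are shown for the 4 members with the largest differences between 0 and 2 h of FGF1, of which Dusp1 peaked earlier than Spry2, Dusp5 and Errfi1. Each line gives the 250 bases before the annotated start, 5′ to 3′ on the strand of the gene, from RefSeq on GRCr8. Capitals mark matches on either strand to the cAMP response element (TGACGTCA), its half-site (TGACG) and the CArG box, the motif that serum response factor binds. An AP-1 site (TGANTCA) and an ETS site (CCGGAAG) were searched too and had 0 matches in these windows.
Dusp1, chr10:17184603-17184852, plus strand: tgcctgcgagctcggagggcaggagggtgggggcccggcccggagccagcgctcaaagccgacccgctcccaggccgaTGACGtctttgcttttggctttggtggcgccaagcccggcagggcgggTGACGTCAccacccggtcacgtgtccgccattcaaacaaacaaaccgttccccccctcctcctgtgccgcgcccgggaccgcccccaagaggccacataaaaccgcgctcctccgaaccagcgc
Dusp5, chr1:262543524-262543773, plus strand: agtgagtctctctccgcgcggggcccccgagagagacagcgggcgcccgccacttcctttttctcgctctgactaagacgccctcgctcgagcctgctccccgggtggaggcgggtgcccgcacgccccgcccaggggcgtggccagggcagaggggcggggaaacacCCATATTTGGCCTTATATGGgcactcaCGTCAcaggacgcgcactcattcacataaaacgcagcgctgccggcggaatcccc
Spry2, chr15:89111927-89112176, minus strand: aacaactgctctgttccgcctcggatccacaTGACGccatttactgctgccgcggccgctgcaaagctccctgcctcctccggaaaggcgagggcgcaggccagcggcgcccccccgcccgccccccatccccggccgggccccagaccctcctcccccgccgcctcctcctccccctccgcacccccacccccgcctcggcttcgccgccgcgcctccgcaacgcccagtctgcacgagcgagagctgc
Errfi1, chr5:166606591-166606840, plus strand: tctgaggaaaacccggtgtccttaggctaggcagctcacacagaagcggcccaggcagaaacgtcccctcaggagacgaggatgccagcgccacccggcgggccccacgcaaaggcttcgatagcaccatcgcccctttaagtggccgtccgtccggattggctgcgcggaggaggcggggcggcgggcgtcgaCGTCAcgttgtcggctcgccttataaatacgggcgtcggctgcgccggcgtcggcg
The Dusp1 window held 1 full cAMP response element, from 124 to 117 bases before the start. It also held 3 half-sites, 2 of which lie within the full element. The Dusp5 window held 2 adjacent CArG boxes, from 82 to 73 and from 72 to 63 bases before the start, and 1 half-site. The Spry2 and Errfi1 windows held 1 half-site each. Of all 33469 windows of this length in the RefSeq table, 1.59% held the full element, 18.2% the half-site, 1.50% a CArG box, 6.34% the AP-1 site and 7.27% the ETS site. In the table's Dusp6 window 0 of the 5 motifs was found, and it is not printed because only 148 of its bases lie before the annotated gene. A match describes the letters only.

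The median log2 signal of an array was 6.13 to 6.22, and arrays of one group correlated at r = 0.988 to 0.997. Values are log2 RMA signals, so a difference of 1 is a 2-fold change. Differences are given ± SE from a limma fit over all 12 groups, with p-values adjusted by the Benjamini-Hochberg method over 15866 probe sets and a threshold of 0.05. Counts at an unadjusted p under 0.05 were not taken over all probe sets, so no excess of members can be read from them. The labels do not say whether the arrays of a group came from separate cultures, so the p-values rest on a spread between samples that may be technical. Fgfr1 (1387498_a_at) read 3.58 to 4.05 on the 10 NBTII arrays and 4.56 to 7.58 on 10 of the 11 NBTII-FGFR1 arrays. The exception, the library labelled NBTII-FGFR1 0 h replicate 1, read 3.57. NBTII-FGFR1 2 h replicate 1 correlated best with the NBTII 0.5 h array (r = 0.990) rather than with its own group. Its partner, replicate 2, was also closest to an array of the other line, NBTII 2 h replicate 2 (r = 0.993). Fits without doubted arrays dropped replicate 1 of this pair and kept replicate 2, so they leave replicate 2 unexamined. Of the 10 measured epithelial markers, 8 exceeded the lower quartile of every array (4.36 to 4.54), among them Krt5, Krt8 and Cdh1, and Krt19 exceeded it on 0 arrays. No uroplakin, the defining genes of superficial urothelium, was measured (0 of 5). Of the 6 leukocyte markers 4 exceeded the quartile on all arrays but Ptprc and Cd3e on 0, and endothelial and fibroblast markers did so in 0 of 3 and 2 of 8. The mean level of the leukocyte markers ran from 4.96 to 5.18 in NBTII and from 4.93 to 5.24 in NBTII-FGFR1, that of the endothelial markers from 3.45 to 3.72 and from 3.44 to 3.67, and that of the fibroblast markers from 4.25 to 4.41 and from 4.10 to 4.41. Poly-A spike controls read 6.44 to 7.02 on the 3 arrays at 0 h and 5.46 to 5.95 on the 18 later ones. They therefore move with every comparison against 0 h, and their part in those results was not tested.

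Of the 8 probe sets, 7 exceeded the lower quartile on all 21 arrays. Spry2 did so on 20, and its reading of 4.45 in NBTII at 0 h was not shown to exceed background, so a difference from that array is best read as a lower bound. The standard deviation over the 21 arrays placed 7 of the 8 probe sets between the 94.5th and the 99.9th percentile of all probe sets, and Dusp6 1377064_at at the 74.5th. The members were chosen with earlier results of these data known, so these percentiles only describe them.

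**Figure D1:**
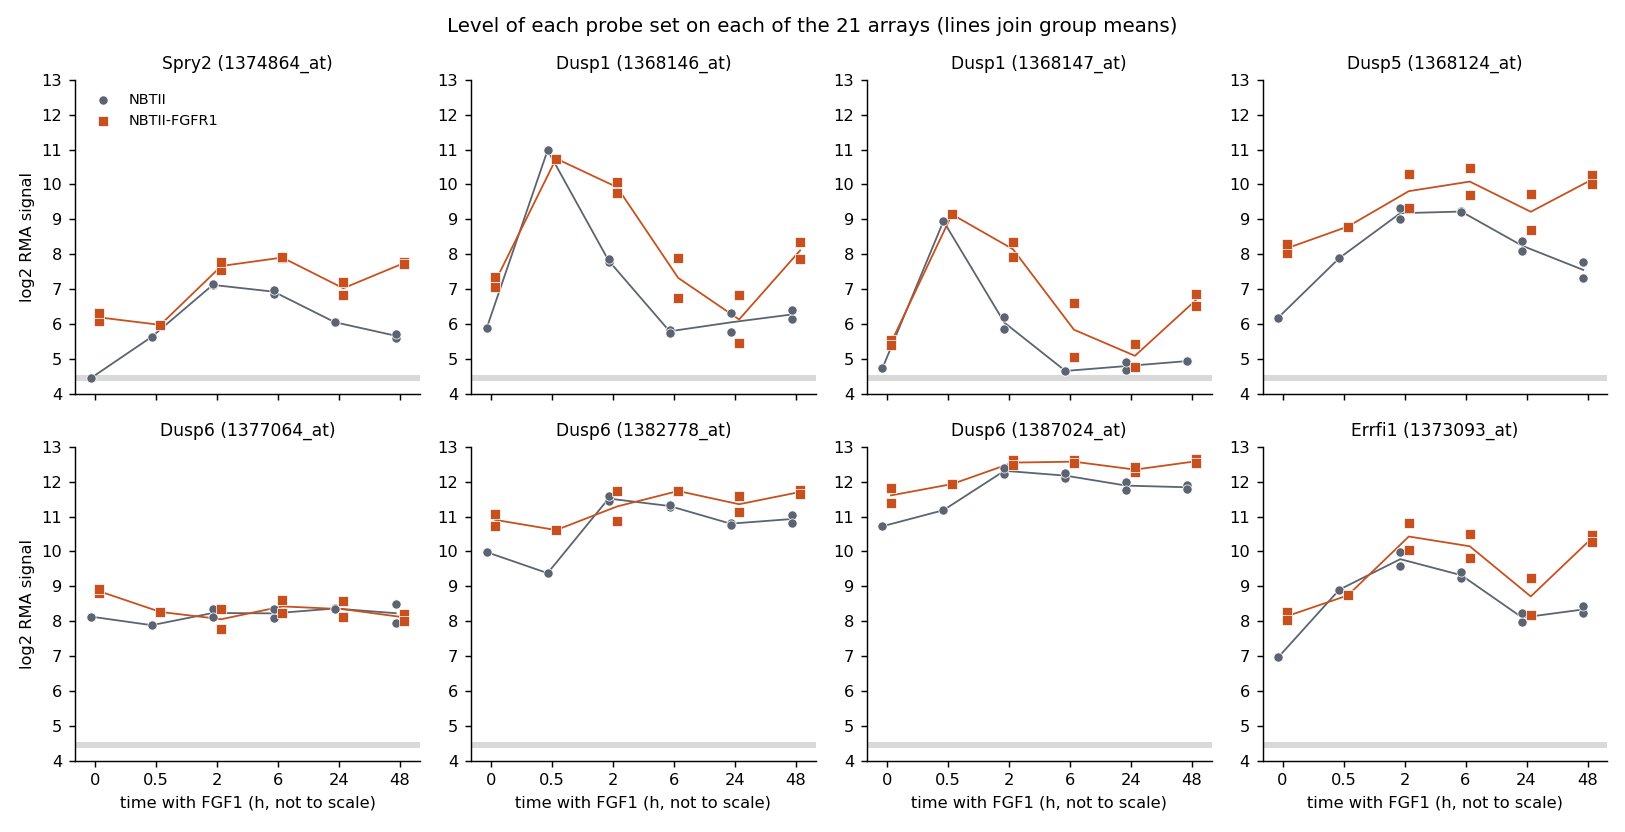
Log2 RMA signal of the 8 probe sets on each of the 21 arrays, against time with FGF1, with circles for NBTII, squares for NBTII-FGFR1, lines through group means and a grey band at the range of the arrays' lower quartiles (4.36 to 4.54). Both Dusp1 probe sets peak at 0.5 h, Spry2, Dusp5 and Errfi1 reach a plateau at 2 to 6 h, and Dusp6 1377064_at stays between 7.77 and 8.91.

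Dusp1 encodes a nuclear phosphatase of the MAP kinases ERK, p38 and JNK and is an immediate-early gene. On probe set 1368146_at the NBTII level was 5.87 at 0 h, 10.98 at 0.5 h, 7.77 and 7.86 at 2 h, 5.82 and 5.75 at 6 h, 5.77 and 6.32 at 24 h, and 6.13 and 6.41 at 48 h. The single array at 0.5 h was the highest of the line, those of 2 h came next, and those of 6, 24 and 48 h lay around the array at 0 h. In NBTII-FGFR1 the level was 7.35 and 7.07 at 0 h, 10.74 at 0.5 h, 10.08 and 9.76 at 2 h, 6.75 and 7.89 at 6 h, 5.44 and 6.82 at 24 h, and 8.36 and 7.86 at 48 h. Here the arrays at 2 h lay just below the array at 0.5 h, and the arrays at 48 h lay above those at 0 h and 24 h. Over both lines Dusp1 rose by 4.32 ± 0.35 from 0 to 0.5 h (19.9-fold, adjusted p = 1.04e-05). It then fell by 1.99 ± 0.33 from 0.5 to 2 h (adjusted p = 0.00484). From 2 to 6 h it fell by 2.60 ± 0.38 in NBTII-FGFR1 (adjusted p = 0.00051) and by 2.03 ± 0.38 in NBTII (adjusted p = 0.0109), and the NBTII call was lost without 1 of 3 arrays: NBTII 2 h replicate 1 (adjusted p = 0.0674), NBTII 6 h replicate 1 (0.0746) or NBTII 6 h replicate 2 (0.0693).

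The second Dusp1 probe set, 1368147_at, followed the first at r = 0.99 over the 21 arrays. It read from 4.65 in NBTII at 6 h to 9.14 in NBTII-FGFR1 at 0.5 h. Its rise to 0.5 h over both lines was 3.95 ± 0.32 (adjusted p = 1.04e-05). The probe sets parted at 2 h in NBTII. There 1368146_at lay 1.94 ± 0.46 above 0 h (adjusted p = 0.0354, lost in 6 of the 18 fits that each leave out 1 array, with values up to 0.106). For 1368147_at the difference was 1.31 ± 0.42 (adjusted p = 0.123).

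Spry2 encodes a Sprouty protein, an inhibitor that acts below receptor tyrosine kinases at the level of Ras and Raf. In NBTII its level was 4.45 at 0 h, 5.63 at 0.5 h, 7.10 and 7.13 at 2 h, 6.87 and 6.98 at 6 h, 6.05 and 6.05 at 24 h, and 5.61 and 5.72 at 48 h. The arrays at 2 h were the highest of the line, and each later time lay below the one before with no overlap. In NBTII-FGFR1 it was 6.07 and 6.30 at 0 h, 5.97 at 0.5 h, 7.56 and 7.77 at 2 h, 7.88 and 7.93 at 6 h, 6.83 and 7.21 at 24 h, and 7.78 and 7.72 at 48 h. At each of the 6 times all NBTII-FGFR1 arrays lay above all NBTII arrays. From 0.5 to 2 h, Spry2 rose by 1.59 ± 0.11 over both lines (3.0-fold, adjusted p = 1.05e-05). For 0.5 h against 0 h the difference was 0.49 ± 0.12 (adjusted p = 0.0541), with 1.19 in NBTII and -0.21 in NBTII-FGFR1.

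Errfi1 encodes a cytosolic protein that binds the kinase domain of the EGF receptor family and blocks it. In NBTII its level was 6.97 at 0 h, 8.90 at 0.5 h, 9.58 and 9.98 at 2 h, 9.24 and 9.40 at 6 h, 7.98 and 8.23 at 24 h, and 8.24 and 8.44 at 48 h. In NBTII-FGFR1 it was 8.25 and 8.04 at 0 h, 8.74 at 0.5 h, 10.03 and 10.83 at 2 h, 9.80 and 10.50 at 6 h, 8.19 and 9.23 at 24 h, and 10.47 and 10.28 at 48 h. The 2 h arrays of both lines were above their 0.5 h arrays, and the arrays at 48 h overlapped those of 2 and 6 h in NBTII-FGFR1 but lay below all of them in NBTII. Over both lines Errfi1 rose by 1.27 ± 0.29 from 0 to 0.5 h (2.41-fold, adjusted p = 0.0329). That call was lost without NBTII-FGFR1 0 h replicate 1 (adjusted p = 0.0688) or 2 (0.0726) and without NBTII-FGFR1 48 h replicate 1 or 2 (0.0523 each). From 0.5 to 2 h it rose by a further 1.28 ± 0.27 (adjusted p = 0.0223; 0.0605 without NBTII 2 h replicate 2 and 0.0532 without NBTII-FGFR1 2 h replicate 2).

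Dusp5 encodes a nuclear phosphatase that acts on ERK and not on the stress kinases. In NBTII its level was 6.18 at 0 h, 7.89 at 0.5 h, 9.01 and 9.34 at 2 h, 9.22 and 9.22 at 6 h, 8.09 and 8.39 at 24 h, and 7.31 and 7.78 at 48 h. In NBTII-FGFR1 it was 8.03 and 8.30 at 0 h, 8.79 at 0.5 h, 9.32 and 10.29 at 2 h, 9.70 and 10.46 at 6 h, 8.71 and 9.72 at 24 h, and 10.27 and 10.01 at 48 h. The lines overlapped at 2 h, and the NBTII-FGFR1 arrays lay above the NBTII arrays at the other 5 times. Over both lines the differences were 1.16 ± 0.32 for 0.5 h against 0 h (adjusted p = 0.0739) and 1.15 ± 0.29 for 2 h against 0.5 h (adjusted p = 0.0563). Against 0 h it was higher by 2.99 ± 0.41 at 2 h in NBTII (7.95-fold, adjusted p = 0.00114) and by 1.64 ± 0.34 in NBTII-FGFR1 (3.11-fold, adjusted p = 0.00721). The NBTII-FGFR1 call was lost without NBTII-FGFR1 0 h replicate 1 (adjusted p = 0.0787) or NBTII-FGFR1 2 h replicate 2 (0.0531), though not without both doubted arrays together (0.0172).

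Dusp6 encodes the cytoplasmic ERK phosphatase that is used as a reporter of FGF signalling in many tissues. Its probe set 1387024_at read 10.72 at 0 h, 11.18 at 0.5 h, 12.22 and 12.40 at 2 h, 12.09 and 12.25 at 6 h, 12 and 11.77 at 24 h, and 11.90 and 11.78 at 48 h in NBTII. In NBTII-FGFR1 it read 11.39 and 11.82 at 0 h, 11.93 at 0.5 h, 12.62 and 12.48 at 2 h, 12.61 and 12.54 at 6 h, 12.27 and 12.42 at 24 h, and 12.64 and 12.53 at 48 h. In NBTII the arrays at 24 and 48 h lay below those at 2 and 6 h and above those at 0 and 0.5 h, while in NBTII-FGFR1 the arrays at 48 h overlapped those at 2 h. From 0.5 to 2 h it rose by 0.87 ± 0.12 over both lines (adjusted p = 0.00149). Probe set 1382778_at correlated with it at r = 0.86 over 21 arrays. It read between 9.38 in NBTII at 0.5 h and 11.75 in NBTII-FGFR1. From 0.5 to 2 h it rose by 1.41 ± 0.19 over both lines (adjusted p = 0.00107). From 0 to 0.5 h these probe sets moved apart over both lines, neither with a call. The difference was -0.45 ± 0.20 on 1382778_at (adjusted p = 0.299) and 0.39 ± 0.13 on 1387024_at (adjusted p = 0.156). At 2 h against 0 h in NBTII-FGFR1 it was 0.38 ± 0.22 on 1382778_at (adjusted p = 0.316).

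The third Dusp6 probe set, 1377064_at, did not follow the others (r = -0.07 with 1387024_at and 0.02 with 1382778_at). In NBTII-FGFR1 it read 8.81 and 8.91 at 0 h, 8.27 at 0.5 h, 8.35 and 7.77 at 2 h, 8.61 and 8.24 at 6 h, 8.58 and 8.12 at 24 h, and 8.22 and 8.0 at 48 h. The NBTII arrays lay between 7.89 and 8.51, and the highest readings were the 2 NBTII-FGFR1 arrays at 0 h. Against 0 h it was lower by -0.80 ± 0.22 at 2 h (adjusted p = 0.0327) and by -0.75 ± 0.22 at 48 h (adjusted p = 0.0227), where 1387024_at was higher by 0.94 ± 0.14 (adjusted p = 0.000733) and 0.98 ± 0.14 (adjusted p = 0.000204). The 2 h call was lost without NBTII-FGFR1 0 h replicate 1 (0.123) or 2 (0.148) or NBTII-FGFR1 2 h replicate 2 (0.212), and the 48 h call without any 1 of the 4 arrays compared (0.0609 to 0.155). With the mean of the 3 Dusp6 probe sets in its place, the differences became 0.17 at 2 h (adjusted p = 0.409) and 0.34 at 48 h (adjusted p = 0.0494).

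At 0.5 h Dusp1 was the gene with the largest difference from 0 h among the members. Over both lines 3 of the 8 probe sets rose at 0.5 h (both of Dusp1 and Errfi1), against 1.68% of all probe sets, and their median difference was 0.83 against -0.03 over all probe sets. In NBTII-FGFR1 alone 2 of 8 rose at 0.5 h, both of Dusp1, against 0.977%, with differences of 3.53 ± 0.46 and 3.68 ± 0.42, and for Errfi1 the difference was 0.60 ± 0.38 (adjusted p = 0.569). With a replicate block Spry2 and Dusp5 were called over both lines too (adjusted p = 0.0239 and 0.00918). From 0.5 to 2 h over both lines 4 of 8 rose (Spry2, Errfi1 and 2 of Dusp6) against 1.24%, and 2 of 8, both of Dusp1, fell against 0.927%. None of these 6 calls held when only the arrays of those 2 times were fitted (adjusted p from 0.0551 to 0.274). That fit called 0 of all probe sets, so the loss is not particular to the members.

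At 2 h each of the 5 genes had a probe set above its 0 h level in each line. In NBTII-FGFR1 6 of 8 probe sets were higher against 5.27% of all probe sets and 1, Dusp6 1377064_at, was lower against 4.08%, and the median difference was 1.56 against -0.06. In NBTII 6 of 8 were higher against 1.95%, with a median of 1.77 against -0.01. The largest differences were 2.81 ± 0.38 for Errfi1 (7.02-fold, adjusted p = 0.000888), 2.99 ± 0.41 for Dusp5 and 2.67 ± 0.16 for Spry2 (6.38-fold, adjusted p = 4.68e-07) in NBTII. In NBTII-FGFR1 they were 2.71 ± 0.38 and 2.68 ± 0.35 for Dusp1 (adjusted p = 0.000379 and 0.000246) and 2.28 ± 0.31 for Errfi1 (4.87-fold, adjusted p = 0.000312). The difference between these responses, a comparison added after seeing the data, was not called for any member (0 of 8 against 0% of all probe sets by limma, 6 of 8 at an unadjusted p under 0.05, a level not counted over all probe sets). For Spry2 it was -1.20 ± 0.21 (95% interval -1.64 to -0.76, adjusted p = 0.0735), and it was called without NBTII-FGFR1 2 h replicate 2 (-1.31, adjusted p = 0.0145). The 4 comparisons within NBTII share its single 0 h array, and those within NBTII-FGFR1 share 2 arrays at 0 h, 1 of them doubted.

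Later the members stayed above 0 h in part. At 6 h 5 of 8 were higher in NBTII-FGFR1 (against 9.38%) and 5 of 8 in NBTII (against 3.70%): Spry2, Dusp5, Errfi1 and 2 of Dusp6 in each. Dusp1 1368146_at was by then 0.11 ± 0.38 and -0.09 ± 0.46 from 0 h. At 24 h 2 of 8 were higher in NBTII-FGFR1 (against 3.57%), Spry2 by 0.84 ± 0.13 (adjusted p = 0.00254) and Dusp6 1387024_at by 0.74 ± 0.14 (adjusted p = 0.00808). The Spry2 call was lost without NBTII-FGFR1 24 h replicate 2 (adjusted p = 0.0563), and the Dusp6 call without that array or without NBTII-FGFR1 0 h replicate 1 (0.113 each). In NBTII 3 of 8 were higher at 24 h (against 0.567%), Spry2 by 1.60 ± 0.16, Dusp6 1387024_at by 1.17 ± 0.17 and Dusp5 by 2.06 ± 0.41, the last lost in 4 of 18 fits (adjusted p up to 0.17).

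At 48 h more members passed the test in NBTII-FGFR1 than in NBTII, but the difference between the responses was not called. In NBTII-FGFR1 6 of 8 were higher than at 0 h (against 10.5%) and 1 was lower (against 10.9%), with Errfi1 up by 2.23 ± 0.31 (4.7-fold, adjusted p = 0.000139), Dusp5 by 1.97 ± 0.34 (3.91-fold, adjusted p = 0.000711) and Spry2 by 1.56 ± 0.13 (2.95-fold, adjusted p = 3.01e-06). Without both doubted arrays Errfi1 was up by 2.34, Dusp5 by 1.83 and Spry2 by 1.45, and Dusp1 1368147_at (1.22 ± 0.35, adjusted p = 0.0193) lost its call (0.0615). In NBTII 2 of 8 were higher at 48 h (against 0.580%), Spry2 by 1.22 ± 0.16 (adjusted p = 0.00398) and Dusp6 1387024_at by 1.12 ± 0.17 (adjusted p = 0.00817; 0.0502 and 0.0602 without NBTII 48 h replicate 1 or 2). For Errfi1 and Dusp5 the NBTII differences were 1.37 ± 0.38 (adjusted p = 0.108) and 1.37 ± 0.41 (adjusted p = 0.149). The difference between the lines in the response from 0 to 48 h, added after seeing the data, was called for 0 of 8 members (1.13% of all probe sets; 1 of 8 at an unadjusted p under 0.05).

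Between late times Spry2 and Errfi1 fell from 6 to 24 h in both lines, and both rose from 24 to 48 h in NBTII-FGFR1, as did Dusp1. From 2 to 6 h the members called were the probe sets of Dusp1: 2 of 8 fell in NBTII-FGFR1 (against 9.59%) and 2 of 8 in NBTII (against 1.08%), and the NBTII call of 1368147_at (-1.38 ± 0.35, adjusted p = 0.0424) was lost in 12 of 18 fits. From 6 to 24 h 3 of 8 fell in NBTII-FGFR1 (against 5.81%) and 2 of 8 in NBTII (against 4.37%). Spry2 fell by 0.88 ± 0.13 in NBTII-FGFR1 (adjusted p = 0.000639) and by 0.87 ± 0.13 in NBTII (adjusted p = 0.00101). Errfi1 fell by 1.44 ± 0.31 in NBTII-FGFR1 (adjusted p = 0.00633; 0.0944 without NBTII-FGFR1 24 h replicate 1 and 0.0808 without NBTII-FGFR1 6 h replicate 2). In NBTII Errfi1 fell by 1.22 ± 0.31 (adjusted p = 0.0252), a call lost without any 1 of the 4 arrays compared (0.0869 to 0.152). Dusp1 1368146_at fell by 1.19 ± 0.38 in NBTII-FGFR1 (adjusted p = 0.0471), and 14 of 18 fits lost that call. For Dusp5 the differences were -0.87 ± 0.34 and -0.98 ± 0.34 in NBTII-FGFR1 and NBTII (adjusted p = 0.102 and 0.0941), and both were called with a replicate block (0.0288 and 0.0228).

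From 24 to 48 h 4 of 8 probe sets rose in NBTII-FGFR1, against 4.13% of all probe sets. In NBTII 0 of 8 were called, where limma called 0.0630% of all probe sets (1 of 8 at an unadjusted p under 0.05). That 1 was Spry2, with a difference of -0.39 ± 0.13 (95% interval -0.67 to -0.11, adjusted p = 0.267). In NBTII-FGFR1 Dusp1 rose by 1.98 ± 0.38 on 1368146_at (3.94-fold, adjusted p = 0.00438) and by 1.60 ± 0.35 on 1368147_at (adjusted p = 0.00927). Errfi1 rose by 1.67 ± 0.31 (3.18-fold, adjusted p = 0.00362) and Spry2 by 0.72 ± 0.13 (1.65-fold, adjusted p = 0.00303). For Dusp5 the difference was 0.92 ± 0.34 (adjusted p = 0.111, and 0.0288 with a replicate block). All 4 calls were lost without NBTII-FGFR1 24 h replicate 1, the array with the lowest Dusp1, Dusp5 and Errfi1 of that pair: the differences were then 1.29 and 1.26 for Dusp1 (adjusted p = 0.0765 and 0.137), 1.15 for Errfi1 (0.0682) and 0.53 for Spry2 (0.065). Those of Dusp1 and Errfi1 were also lost without NBTII-FGFR1 48 h replicate 1 (0.077, 0.12 and 0.0572).

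Whether this step differed between the lines was tested directly, in a comparison added after seeing the data. The difference was called for 0 of 8 members (0.0126% of all probe sets). At an unadjusted p under 0.05 there were 5 of 8, a level not counted over all probe sets. The difference of the steps was 1.11 ± 0.18 for Spry2 (95% interval 0.72 to 1.51, adjusted p = 0.0705), 1.75 ± 0.54 for Dusp1 1368146_at (0.61 to 2.90, adjusted p = 0.416), 1.61 ± 0.48 for Dusp5 (0.59 to 2.63, adjusted p = 0.37) and 1.43 ± 0.44 for Errfi1 (0.50 to 2.37, adjusted p = 0.407). For Spry2 it was called without NBTII-FGFR1 24 h replicate 2 (1.31, adjusted p = 0.0168) and without NBTII-FGFR1 2 h replicate 1 or 2 (0.0445 each). For the steps from 2 to 6 h and from 6 to 24 h, also added after seeing the data, the difference between the lines was called for 0 of 8 members each (0.132% and 0.00630% of all probe sets; 2 of 8 and 1 of 8 at an unadjusted p under 0.05).

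**Figure D2:**
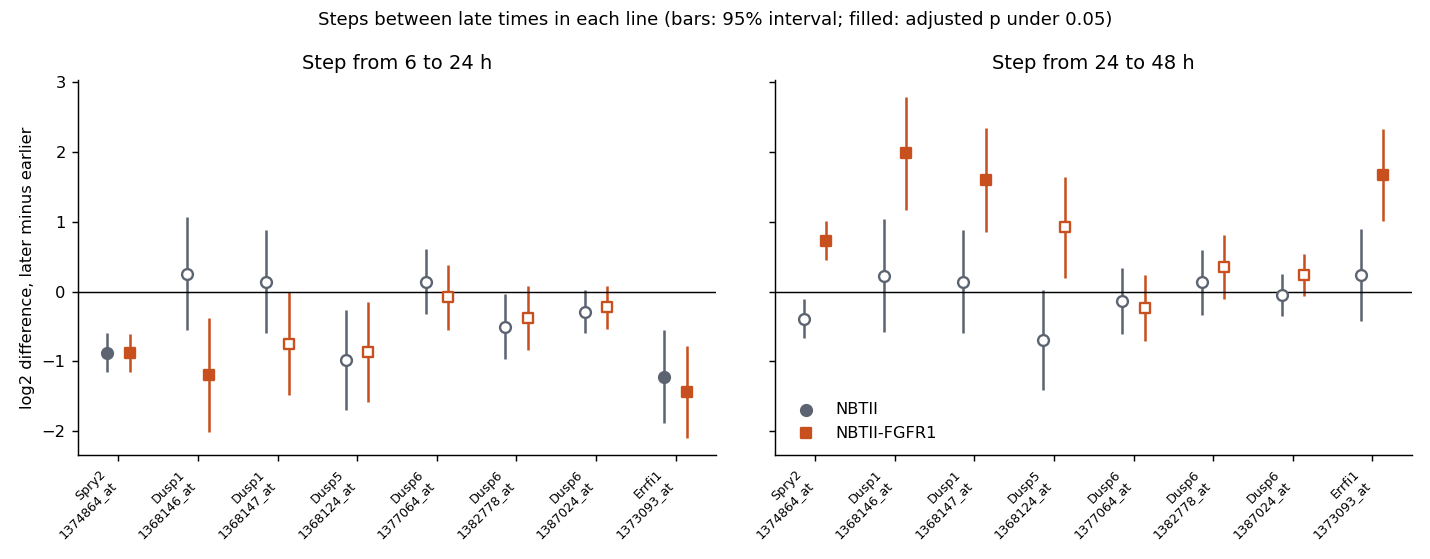
Log2 difference of each probe set for the steps from 6 to 24 h and from 24 to 48 h, with NBTII as circles and NBTII-FGFR1 as squares, bars for 95% intervals and filled symbols where the adjusted p is under 0.05. Spry2 and Errfi1 are filled below 0 in both lines from 6 to 24 h, and 4 squares but 0 circles are filled above 0 from 24 to 48 h.

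The paired arrays of NBTII-FGFR1 at 2, 6 and 24 h differed more for these genes than those of the other groups, with a median absolute gap over the 8 probe sets of 0.50, 0.54 and 0.57, against 0.09 to 0.25 elsewhere. At 24 h replicate 2 lay above replicate 1 by 1.38 and 0.67 for Dusp1, 1.02 for Dusp5, 1.04 for Errfi1 and 0.38 for Spry2, where the median absolute gap over all probe sets was 0.13. At 6 h it lay above by 1.13 and 1.54 for Dusp1, 0.76 for Dusp5 and 0.70 for Errfi1, against a median of 0.17. Fgfr1 read 4.56 and 6.14 on the 2 arrays at 24 h, 5.82 and 5.37 at 6 h, 7.44 and 7.20 at 48 h and 7.58 and 6.67 at 2 h. Among these times Fgfr1 was thus lowest on the 24 h array on which Dusp1, Dusp5, Errfi1 and Spry2 were also at their lowest. At 48 h too, replicate 1 had the higher level of Fgfr1 and of these genes. At 2 h replicate 1 had the higher Fgfr1 and Dusp1 but the lower Dusp5, Errfi1 and Spry2. At 6 h it had the higher Fgfr1 but the lower Dusp1, Dusp5, Errfi1 and Spry2. The part of Fgfr1 in these differences was not tested. With the second arrays of 6 and 24 h both left out, a choice made after seeing the data, the step difference from 24 to 48 h was 1.31 for Spry2 and 2.44 and 1.79 for Dusp1. For both genes the 24 h array kept is the lower of its pair, which by itself enlarges the rise to 48 h. This fit therefore cannot decide whether the step differed between the lines.

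Between the lines, members were higher in NBTII-FGFR1 wherever a difference was called. At 0 h 2 of 8 were higher (against 0.366% of all probe sets): Spry2 by 1.74 ± 0.16 (3.34-fold, adjusted p = 0.00032) and Dusp6 1387024_at by 0.89 ± 0.17 (adjusted p = 0.0436, lost in 11 of 18 fits). Without both doubted arrays the differences were 1.86 for Spry2, 2.12 for Dusp5 and 1.10 for Dusp6 on 1382778_at and 1387024_at. The NBTII side of this comparison is 1 array, whose own spread is unknown, and fitted with only these 3 arrays Spry2 had an adjusted p of 0.0981. At 2 h 3 of 8 were higher (against 1.46%): Spry2 by 0.54 ± 0.13 and Dusp1 by 2.10 ± 0.38 and 2.11 ± 0.35. The Spry2 call (adjusted p = 0.0459) was lost in 14 of 18 fits. The Dusp1 calls (adjusted p = 0.0156 and 0.0105) were lost without NBTII 2 h replicate 1 (0.129 and 0.0764) or NBTII-FGFR1 2 h replicate 1 (0.104 and 0.0857).

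At 6 h and at 24 h 1 of 8 was higher, Spry2 both times, by 0.98 ± 0.13 (adjusted p = 0.00291, against 0.611% of all probe sets) and by 0.97 ± 0.13 (adjusted p = 0.0125, against 0.101%). The 24 h call was lost without NBTII 24 h replicate 1 (adjusted p = 0.181) or 2 (0.106) and without NBTII-FGFR1 24 h replicate 2 (0.217). For Dusp1 1368146_at the 24 h difference was 0.08 ± 0.38 with a 95% interval from -0.73 to 0.89. At 48 h 7 of 8 were higher, against 4.75%, and the median difference was 1.79 against -0.05 over all probe sets. Dusp5 was higher by 2.59 ± 0.34 (6.01-fold, adjusted p = 0.000536), Spry2 by 2.09 ± 0.13 (4.25-fold, adjusted p = 1.75e-06) and Errfi1 by 2.04 ± 0.31 (4.12-fold, adjusted p = 0.00123). Dusp1 was higher by 1.84 ± 0.38 and 1.75 ± 0.35 (adjusted p = 0.00857 and 0.00665), and Dusp6 by 0.75 ± 0.14 on 1387024_at (adjusted p = 0.00535) and 0.78 ± 0.22 on 1382778_at (adjusted p = 0.0392). For Dusp6 1377064_at the difference was -0.12 ± 0.22.

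At 48 h the arrays of the lines did not overlap for those 7 probe sets, which restates the values behind their calls. The share of all probe sets without overlap was not counted, so the separation adds no support. Without NBTII 48 h replicate 1 or NBTII-FGFR1 48 h replicate 1, 4 and 3 of the 8 probe sets were called at that time. Spry2, Dusp5 and Errfi1 kept their calls in all 18 fits. Dusp1 lost its call in both of those fits (adjusted p = 0.0991 and 0.123 on 1368146_at, 0.0652 and 0.098 on 1368147_at), Dusp6 1387024_at in the second (0.0811) and 1382778_at in 8 of 18 (up to 0.239). Averaged over 2, 6, 24 and 48 h 7 of 8 were higher in NBTII-FGFR1, against 8.34%. The mean difference was 1.39 ± 0.19 and 1.33 ± 0.17 for Dusp1, 1.26 ± 0.17 for Dusp5, 1.15 ± 0.07 for Spry2 and 1.03 ± 0.15 for Errfi1, and 0.46 ± 0.07 and 0.38 ± 0.11 for Dusp6 on 1387024_at and 1382778_at. The last call was lost in 6 of 18 fits (adjusted p up to 0.07).

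**Figure D3:**
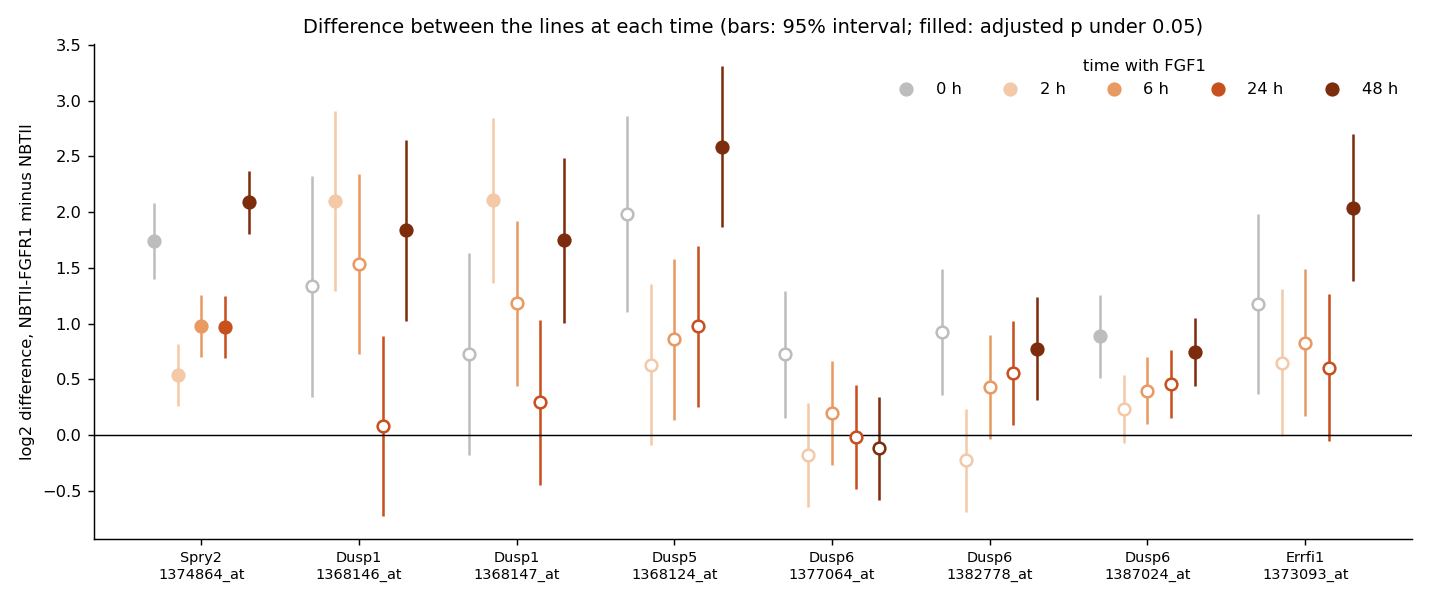
Log2 difference between the lines (NBTII-FGFR1 minus NBTII) for the 8 probe sets at 0, 2, 6, 24 and 48 h, with bars for 95% intervals and filled symbols where the adjusted p is under 0.05. Spry2 is filled at all 5 times, and at 48 h all probe sets but Dusp6 1377064_at are filled, between 0.75 and 2.59.

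Whether the line difference changed over 2 to 48 h was tested by line by time, which called 1 of 8 members, Spry2 (6 of 8 at an unadjusted p under 0.05, a level not counted over all probe sets). The Spry2 difference was 0.54 at 2 h, 0.98 at 6 h, 0.97 at 24 h and 2.09 at 48 h, and the F test over these 4 times gave an adjusted p of 0.0100 (0.441% of all probe sets were called). That call was lost without NBTII 48 h replicate 1 (adjusted p = 0.0831) or NBTII-FGFR1 48 h replicate 1 (0.0759). For Dusp5, whose line differences were 0.63, 0.86, 0.97 and 2.59, the F test gave an adjusted p of 0.135 (0.0433 with a replicate block). It gave 0.18 and 0.2 for Dusp1, 0.219 for Errfi1 and 0.271 to 0.823 for Dusp6.

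Ordered over the 12 groups, Spry2 ran from 4.45 (NBTII at 0 h) to 7.90 (NBTII-FGFR1 at 6 h). Its highest group did not differ beyond the spread from NBTII-FGFR1 at 48 h and 2 h, and of the 11 pairs of neighbours in the order 3 had a 95% interval of their difference above 0. These intervals are unadjusted and the order was set by the same means, so pairs named as apart only describe the order. Dusp1 1368146_at ran from 5.79 (NBTII at 6 h) to 10.98 (NBTII at 0.5 h), and the 2 lines at 0.5 h did not differ beyond the spread. Of its 11 neighbour pairs 2 were apart: NBTII-FGFR1 at 2 h stood 1.81 above NBTII-FGFR1 at 48 h, and NBTII-FGFR1 at 0 h stood 0.94 above NBTII at 48 h. Dusp5 ran from 6.18 (NBTII at 0 h) to 10.14 (NBTII-FGFR1 at 48 h), with 1 of 11 neighbour pairs apart, NBTII at 48 h above NBTII at 0 h by 1.37. Errfi1 ran from 6.97 (NBTII at 0 h) to 10.43 (NBTII-FGFR1 at 2 h), and its 4 highest groups, NBTII-FGFR1 at 2, 48 and 6 h and NBTII at 2 h, did not differ beyond the spread. Dusp6 1387024_at ran from 10.72 to 12.59, with 5 groups at the top that did not differ beyond the spread.

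Over the 21 arrays, which share the 2 lines and the 6 times, Spry2 correlated with Dusp5 at r = 0.96, with Dusp6 1387024_at at r = 0.93 and with Errfi1 at r = 0.90. With Dusp1 1368146_at the correlation was 0.21 for Spry2, 0.30 for Dusp5 and 0.47 for Errfi1. The genes most like each member by Pearson r were taken from 12711 probe sets with 1 symbol. For Spry2 they were Odc1 (r = 0.95), the rate-limiting enzyme of polyamine synthesis, Slc35e4 (0.92) and Ell2 (0.91), an elongation factor of RNA polymerase II. Odc1 and Slc35e4 also led for Dusp5 (0.94 and 0.93), followed by the ephrin receptor gene Epha2 (0.90), and Odc1 led for Dusp6 (0.90), followed by Ppm1j (0.87) and Slc35e4 (0.87). For Dusp1 they were Zfp36 (0.96), whose product destabilises mRNAs, and the AP-1 family genes Atf3 (0.95) and Jun (0.94). For Errfi1 they were Ell2 (0.95), Pvr (0.94) and Ubap1 (0.94). By Spearman's rho 1 of these 3 genes stayed in the top 3 for Spry2, 2 for Dusp1, 1 for Dusp5, 0 for Dusp6 and 1 for Errfi1.

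The other genes of the pathway were read from lists, each gene by its brightest probe set. Of 6 other Sprouty and Spred genes 2 were measured, Spry1 and Spred3, and of 9 other MAP kinase phosphatases 5 were, Dusp2, Dusp3, Dusp4, Dusp9 and Dusp14. Dusp2 and Dusp9 exceeded the arrays' lower quartile on 0 of 21 arrays. Spry1, a close relative of Spry2, did not share its course. Its group mean was 5.92 in NBTII and 6.00 in NBTII-FGFR1 at 0 h, 6.87 and 7.06 at 0.5 h, 5.48 and 6.29 at 2 h, and 6.31 and 5.18 at 48 h. Spry1 rose by 1.0 ± 0.25 at 0.5 h over both lines (adjusted p = 0.0479, lost in 13 of 18 fits), and at 48 h it was lower in NBTII-FGFR1 by -1.12 ± 0.26 (adjusted p = 0.0163, lost in 4 of 18 fits).

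Of the 5 other MAP kinase phosphatases 0 were called by limma at 0.5 h over both lines, 0 at 2 h in NBTII-FGFR1 and 0 from 24 to 48 h in NBTII-FGFR1 (1 of 5 at an unadjusted p under 0.05 each time). Of all 15866 probe sets limma called 349, 1483 and 1518 in these comparisons. At 2 h in NBTII, where limma called 466 of all probe sets, 1 was called. It was Dusp3, a small phosphatase of ERK and JNK, which was lower by -0.86 ± 0.20 (adjusted p = 0.0342, lost in 5 of 18 fits). Between the lines 1 of these 5 phosphatases was higher in NBTII-FGFR1 at 48 h (against 4.75% of all probe sets) and 1 over 2 to 48 h (against 8.34%). Within NBTII-FGFR1 1 was higher at 24 h than at 0 h (against 3.57%). In each of these comparisons 0 of the 5 were lower. Dusp4, a nuclear phosphatase close in structure to Dusp1, had group means between 4.59 and 5.09. Of 6 measured feedback inhibitors of other kinds (Lrig1, Lrig3, Cbl, Cblb, Socs2 and Socs3) 1 was higher at 2 h in NBTII-FGFR1 (against 5.27% of all probe sets). It was Socs3, an inhibitor of cytokine receptor signalling, by 1.93 ± 0.31 (adjusted p = 0.00108). At 48 h 1 of the 6 was higher in NBTII-FGFR1 than in NBTII (against 4.75%), the ubiquitin ligase gene Cblb by 0.55 ± 0.16 (adjusted p = 0.0480, lost in 14 of 18 fits). Lists of 5 or 6 genes are too short to tell such counts from the shares over all probe sets.

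Of 8 measured ERK-induced transcription factors and early genes 6 rose at 0.5 h over both lines (against 1.68% of all probe sets) and 0 fell, with a median of 2.07 against -0.03 over all probe sets. Fos, an AP-1 subunit, rose by 3.80 ± 0.37 and Egr1, a zinc finger factor, by 3.10 ± 0.43. The Fos group mean went from 4.90 to 10.68 in NBTII and from 9.27 to 11.09 in NBTII-FGFR1. That of Egr1 went from 6.71 to 11.36 and from 9.71 to 11.26, so both stood higher in NBTII-FGFR1 at 0 h. The NBTII levels at both times, and those of NBTII-FGFR1 at 0.5 h, are 1 array each. At 2 h in NBTII-FGFR1 6 of 8 were higher (against 5.27%) and Myc was lower by -0.64 ± 0.14 (lost in 2 of 18 fits), with Phlda1 at 3.05 ± 0.42 and the AP-1 subunit gene Fosl1 at 2.30 ± 0.19. Of 13 receptors and ligands 5 were higher at that time (against 5.27%) and 0 lower, with a median of 0.19 against -0.06 over all probe sets, and Hbegf, a ligand of the EGF receptor that Errfi1 blocks, was higher by 2.60 ± 0.30 and Areg, another such ligand, by 2.02 ± 0.29. At 48 h 5 of the 8 early genes were higher in NBTII-FGFR1 than in NBTII (against 4.75%) and 0 lower, with a median of 0.95 against -0.05, and Egr1 was higher by 2.69 ± 0.45 and Ier3 by 1.65 ± 0.22. Hbegf and Areg were higher too at 48 h, by 1.76 ± 0.30 and 2.30 ± 0.29, and the EGF receptor gene Egfr was lower by -1.0 ± 0.26 (adjusted p = 0.0289, lost in 4 of 18 fits). From 24 to 48 h in NBTII-FGFR1, the step at which Dusp1, Errfi1 and Spry2 rose, 1 of the 8 early genes rose (against 4.13%), Ier3 by 1.22 ± 0.22 (adjusted p = 0.00334, lost in 2 of 18 fits), and 0 fell. Of the 6 measured genes of the Ras to ERK cascade 0 were called by limma at 0.5 h over both lines, at 2 h in either line or from 24 to 48 h in NBTII-FGFR1 (0, 1, 0 and 1 of 6 at an unadjusted p under 0.05 at 0.5 h, at 2 h in NBTII-FGFR1, at 2 h in NBTII and from 24 to 48 h). At 48 h 1 was higher in NBTII-FGFR1 than in NBTII (against 4.75%), the MEK1 gene Map2k1 by 0.48 ± 0.12 (adjusted p = 0.0213, lost in 4 of 18 fits).

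**Figure D4:**
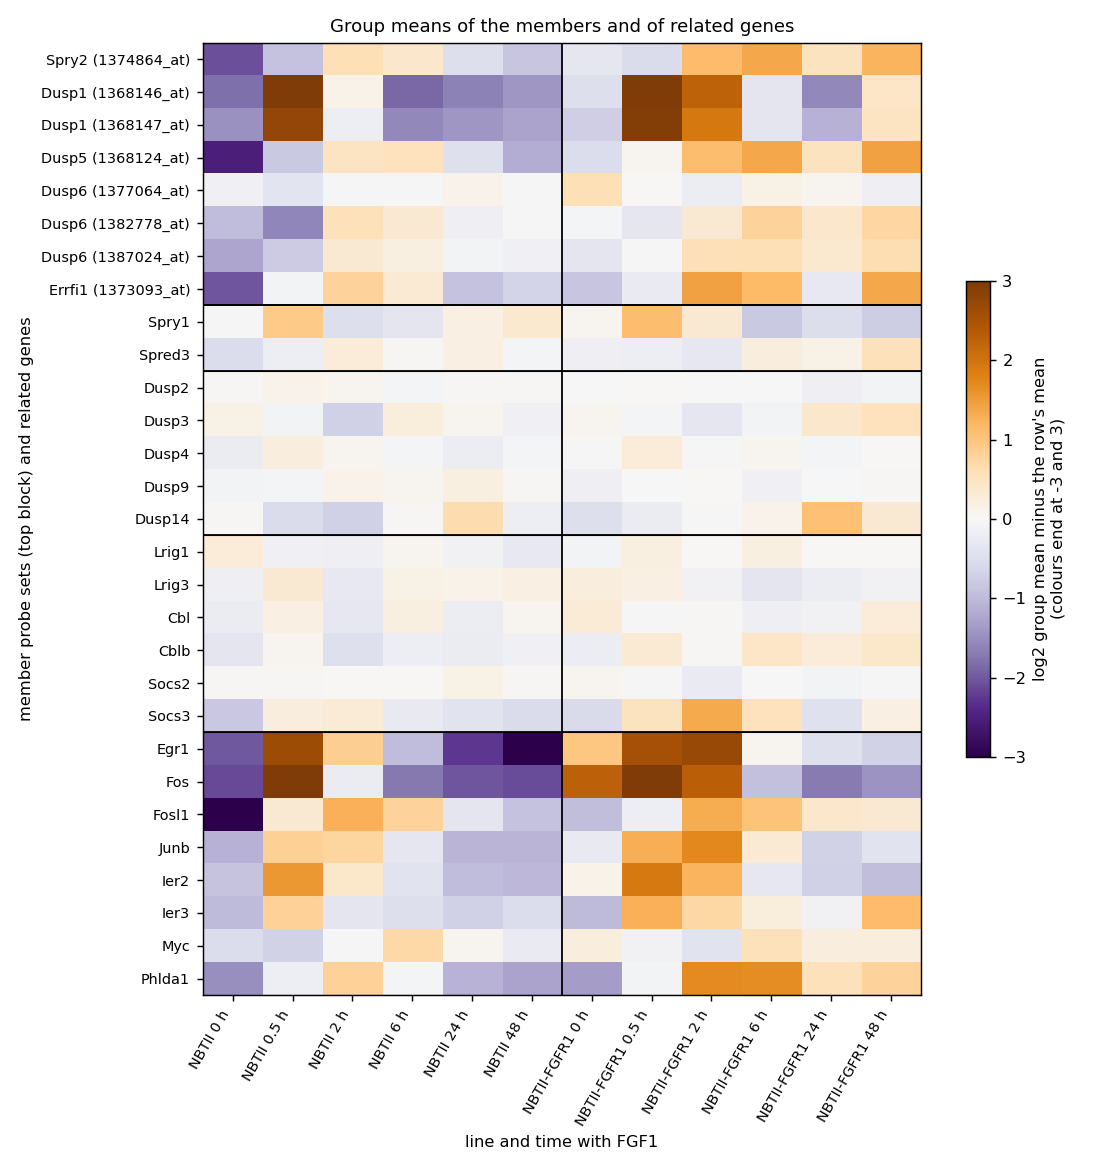
Group means of the 8 member probe sets (top block) and of related genes in 4 lists, each row minus its own mean, by line and time, on a log2 scale whose colours end at -3 and 3. Dusp1 and Fos are highest at 0.5 h in both lines. Spry2, Dusp5, Errfi1 and Phlda1 each have their highest group mean at 2, 6 or 48 h in NBTII-FGFR1, and are lower in that line at 24 h than at those times.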

How the data were processed

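Total RNA of 21 cell samples, 1 array each, was labelled as biotin cRNA per the labels' protocols. The deposited values are RMA log2 signals, made by the authors per the submitters' processing notes, which give no RMA version. RMA normalizes across arrays, which can draw broad shifts together. Groups came from the sample titles, and the members and gene lists were chosen with earlier results of these data known. limma 3.58.1 in R 4.3.3 fitted 12 group means to all 15866 non-control probe sets (57 controls were left out), with Benjamini-Hochberg adjustment over them and a threshold of 0.05. Groups with 1 array borrow the spread of the others, on 9 residual and 5.68 prior degrees of freedom. All 8 member probe sets are described. The genes most like each member were the 3 of highest Pearson r among other symbols. Gene names follow the platform annotation, and promoters come from RefSeq on GRCr8 (5 of 5 members matched). The fit was tested on simulated data. Alternatives were a filter on dim probe sets, a fit of only the arrays compared, array weights, repeated quantile normalization, trend and robust eBayes, a replicate block, the mean of a gene's probe sets, and fits without doubted or single arrays. Python 3.11.15 with pandas 2.3.3, numpy 2.4.6 and matplotlib 3.10.9 made summaries and figures. The number of arrays limits the precision.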

Additional observations from a re-analysis of the deposited data

Results flagged for a closer look

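The difference in Spry2 between NBTII-FGFR1 and NBTII was not the same at 2, 6, 24 and 48 h by the F test of line by time in limma (adjusted p = 0.0100). It was 0.54 ± 0.13 at 2 h and 2.09 ± 0.13 at 48 h, with NBTII-FGFR1 higher on all arrays at each time. Leaving out NBTII 48 h replicate 1 or NBTII-FGFR1 48 h replicate 1 ended the call (adjusted p = 0.0831 and 0.0759).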

How the results depend on the processing

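Counts here are member probe sets called, of 8. In 14 comparisons the fit of only the arrays compared, which leaves fewer degrees of freedom, moved the count by over 1.5 times: to 4 for NBTII-FGFR1 2 h against 0 h, 1 for 24 h against 0 h, 6 h against 2 h and 24 h against 6 h in that line, 2 for NBTII 2 h against 0 h, 0 for NBTII 6 h and 48 h against 0 h, 4 for NBTII 24 h against 6 h, 0 for both lines from 0.5 to 2 h, 0 for the lines at 0, 2, 6 and 24 h, and 2 for the difference in response from 0 to 48 h. That fit called 0 of all probe sets for NBTII 6 h against 0 h, for both lines from 0.5 to 2 h and for the lines at 0 and 2 h. The filter on dim probe sets removed Dusp1 1368147_at and gave 1 for NBTII-FGFR1 0.5 h against 0 h and for 6 h against 2 h in each line, and 2 for the lines at 6 h. Without both doubted arrays, a fit with a single NBTII-FGFR1 array at 0 h and at 2 h, the count fell for NBTII-FGFR1 24 h against 0 h and for the lines at 2 h. It rose for the lines at 0 h, where the number called over all probe sets rose too. Without the second NBTII-FGFR1 arrays of 6 and 24 h, chosen after seeing the data, the count fell for NBTII-FGFR1 24 h against 0 h and for the lines at 24 h. It rose for both lines from 0 to 0.5 h, for the step difference from 24 to 48 h and for line by time. The 24 h array kept in that fit is the lower of its pair for Spry2 and Dusp1, which by itself enlarges the step to 48 h. Array weights gave 5 for NBTII 48 h against 0 h and for both lines from 0 to 0.5 h, 0 for the lines at 2 h and 1 for the step difference from 24 to 48 h. Repeated quantile normalization gave 1 for NBTII 6 h against 2 h and 1 for that step difference, and trend and robust eBayes gave 1 for NBTII 6 h against 2 h. The cause of these changes was not tested except where the setting itself removes arrays or probe sets.

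Whether replicate numbers pair the samples differed between groups. Deviations of same-numbered arrays correlated at -0.13 to 0.35 over 36 pairs of groups, and 15 exceeded 0.1. They did so for all 6 pairs among NBTII at 2 to 48 h (0.115 to 0.232) and all 3 among NBTII-FGFR1 at 2, 6 and 24 h (0.174 to 0.348), and for 0 of the 15 pairs with NBTII-FGFR1 at 0 or 48 h. The replicate block gave 5 for both lines from 0 to 0.5 h, 2 for the lines at 6 h, 1 for the step difference from 24 to 48 h, 1 for the difference in response from 0 to 2 h and 2 for line by time. Dusp6 1377064_at changed sign when the mean of the gene's probe sets took its place, to 0.17, 0.45 and 0.34 for NBTII-FGFR1 at 2, 6 and 48 h against 0 h, 0.47 between the lines at 48 h and 0.27 over 2 to 48 h.

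With 1 array left out at a time, counts in NBTII-FGFR1 ran from 2 to 2 at 0.5 h, 5 to 8 at 2 h, 4 to 6 at 6 h, 1 to 3 at 24 h and 4 to 8 at 48 h against 0 h, 2 to 3 from 2 to 6 h, 1 to 4 from 6 to 24 h and 0 to 5 from 24 to 48 h. In NBTII they ran from 5 to 7 at 2 h, 5 to 5 at 6 h, 2 to 4 at 24 h and 1 to 3 at 48 h against 0 h, 0 to 2 from 2 to 6 h, 1 to 4 from 6 to 24 h and 0 to 0 from 24 to 48 h. For both lines they ran from 2 to 5 from 0 to 0.5 h and 5 to 7 from 0.5 to 2 h. Between the lines they ran from 1 to 4 at 0 h, 0 to 3 at 2 h, 1 to 3 at 6 h, 0 to 1 at 24 h, 3 to 7 at 48 h, 6 to 7 over 2 to 48 h and 0 to 3 for line by time. For the step differences they ran from 0 to 1 (2 to 6 h), 0 to 0 (6 to 24 h) and 0 to 1 (24 to 48 h), and for the response differences from 0 to 2 (at 2 h) and 0 to 0 (at 48 h). The single NBTII arrays at 0 and 0.5 h stayed in all 18 fits. Over all probe sets the number called moved too. Over all the alternatives it ranged from 356 to 2777 around 1518 for NBTII-FGFR1 from 24 to 48 h, and from 252 to 3091 around 1341 between the lines at 48 h. Between the lines it ran from 0 to 206 around 73 at 0 h and from 0 to 2115 around 337 at 2 h. It ran from 21 to 499 around 272 at 6 h and from 0 to 177 around 16 at 24 h. Whether the member counts moved beyond these totals was not tested.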
